A study of Mus musculus with 2 samples.

Results

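The unfolded protein response and the protein folding machinery of the endoplasmic reticulum (ER) were examined in Langerhans cells, which carry Langerin and present antigen in the epidermis. The gene set holds 40 genes, chosen by name for their roles in this response, of 19937 genes that the microarray measured with a probe set assigned to 1 gene symbol. Each gene is represented by its probe set with the highest mean over the arrays. Both arrays were of mice aged 8 to 12 weeks that received ultraviolet light for 30 min, with Langerin and Epcam double-positive cells sorted 21 days later. One array held cells of Il34LacZ/LacZ mice, which carry LacZ in both copies of Il34, and the other cells of Il34+/LacZ mice, which keep 1 unmodified copy. The Il34+/LacZ mice therefore also carry a LacZ allele, and neither an unirradiated nor a wild-type sample was analysed here. Keratinocytes make IL-34, which binds the CSF1 receptor, and the comparison addresses Langerhans cells found after ultraviolet injury in animals without it. The labels do not say whether each array held RNA of 1 mouse or of a pool. With 1 array per genotype (n = 1 each) no difference below has a replicate check, so no p-value is given.

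Proteins that enter the ER are folded there with the help of chaperones, lectins and disulfide isomerases. When unfolded proteins accumulate, the membrane sensors IRE1, PERK and ATF6 start the unfolded protein response. IRE1 splices the messenger of the transcription factor XBP1, PERK phosphorylates the translation factor eIF2 alpha and so favours translation of ATF4, and ATF6 is cut in the Golgi to release a transcription factor. Together they raise chaperones, disulfide isomerases and the machinery of ER-associated degradation. In dendritic cells the IRE1 and XBP1 branch is known for its activity in conventional subsets that cross-present antigen. Spliced Xbp1, phosphorylated eIF2 alpha and cleaved ATF6 are not read by gene-level arrays.

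Many of these genes share a regulatory sequence with which ATF6, together with the factor NF-Y, activates them. This ER stress response element, CCAAT and CCACG with 9 bases of any kind between them, was searched on both strands in RefSeq promoter windows of build GRCm38.p6, which run from 250 bases before to 50 bases after a start site. Windows were listed for 34 of the 40 genes, and 9 of these (26.5%) held the element. Of all 27025 genes with a window 0.137% held it, and of all 32851 windows 0.119%. The 9 genes were Hspa5, Calr, Hsp90b1, Canx, Pdia6, Ero1b, Dnajc3, Creld2 and Syvn1, and Hsp90b1 held it at 2 positions. The shorter element, ATTGG and CCACG with 1 base between them, was in the windows of Herpud1 and Dnajb11 (0.0365% of all windows, 0.0444% of genes with a window). The XBP1 and ATF6 site TGACGTGG was in no window of the gene set (0.676% of all). The amino acid response element TGATGNAAN, to which ATF4 binds in a dimer with a C/EBP protein, was in those of Chac1, Trib3, Asns and Herpud1. It was in 3.95% of all windows and in 4.50% of genes with a window. No sites of different motifs overlapped in these windows. A match is a description of letters, not of binding.

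The 150 bases before the Hspa5 start (chr2:34771940-34772089, plus strand) are shown because Hspa5 is the reference target of the response. Below it stand the elements, each with 15 flanking bases, of the other carriers that were furthest lower in Il34LacZ/LacZ cells (Canx, Hsp90b1 and Dnajc3), of the 2 that differed least (Calr and Ero1b) and of Herpud1. Capitals mark the matched element, and sequences run 5′ to 3′ along the strand of the gene. Calr, Ero1b and the second Hsp90b1 site hold it in the reverse direction.
Hspa5: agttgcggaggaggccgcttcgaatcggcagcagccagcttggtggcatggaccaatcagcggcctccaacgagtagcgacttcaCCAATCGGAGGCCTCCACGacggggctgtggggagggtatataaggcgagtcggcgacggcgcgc
Canx (chr11:50325785-50325833, minus strand): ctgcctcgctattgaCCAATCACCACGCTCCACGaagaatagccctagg
Hsp90b1, first site (chr10:86705623-86705671, minus strand): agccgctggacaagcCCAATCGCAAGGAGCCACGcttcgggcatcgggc
Hsp90b1, second site (chr10:86705518-86705566, minus strand): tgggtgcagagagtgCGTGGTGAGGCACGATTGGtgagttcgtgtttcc
Dnajc3 (chr14:118937812-118937860, plus strand): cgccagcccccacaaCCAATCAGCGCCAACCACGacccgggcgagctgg
Calr (chr8:84847060-84847108, minus strand): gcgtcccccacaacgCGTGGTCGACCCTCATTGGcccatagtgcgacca
Ero1b (chr13:12565667-12565715, plus strand): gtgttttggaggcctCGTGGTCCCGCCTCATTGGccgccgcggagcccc
Herpud1, shorter element (chr8:94386362-94386402, plus strand): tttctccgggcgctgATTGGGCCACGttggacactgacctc

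Taken as deposited, most genes of ER folding read lower in Il34LacZ/LacZ cells, including 8 of 11 chaperones and 7 of 9 disulfide isomerases and oxidases by at least 1.5-fold, and 1 gene of degradation, Derl2, was at least 1.5-fold higher. Values are linear intensities, and differences are log2(intensity + 16) in Il34LacZ/LacZ minus Il34+/LacZ. Folds are also ratios of intensity + 16, and so are smaller than ratios of the printed intensities. All 40 genes reached the floor, the median intensity of all probe sets (48.7), on at least 1 array, and Tmx2, Asns and Trib3 did so on 1 array only. A level under the floor was set to it before a fold was called, which makes that fold a lower bound. The 40 genes included 24 that were lower by at least 1.5-fold and 1 that was higher by that much, beside 28.2% lower and 9.36% higher among all 12843 genes at or above the floor. At least 2-fold lower were 10 and at least 2-fold higher none, beside 12.1% and 1.67% of all genes. The median difference was -0.76 over the 40 genes and -0.16 over all genes. In a sorted population, fewer cells that express a gene and less RNA of it per cell cannot be told apart.

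The difference between these arrays depended on the level of a gene. Genes well above the floor read lower in Il34LacZ/LacZ cells as a rule, most of all at middle levels, and genes near the floor did not. Among the 300 genes nearest in level the median difference was 0.36 around Trib3, -0.76 around Xbp1 and -0.54 around the brighter Hspa5. How the authors summarised, background-corrected and scaled the arrays is not given in the sources used here, and the part of these steps in that dependence, and so in the folds as deposited, was not tested. Each gene was therefore also set against genes of its own level, in 2 ways. A smooth (loess) curve of difference against mean level was subtracted, called the trend below, and each gene was ranked among the 300 genes nearest to it in mean level. As deposited 60% of the 40 genes were at least 1.5-fold lower, against 45.5% of those neighbours on average. At 2-fold the shares were 25% of the 40 genes and 20.8% of the neighbours. With the trend removed the median of the 40 genes was -0.27, and that of all genes 0.03. On this measure 8 genes were lower by at least 1.5-fold, or 20%, a share near the 17.2% of all genes. Derl2 alone was at least 1.5-fold higher, or 2.50%, beside 12.2% of all genes. At 2-fold, Tmx2 was lower and Derl2 higher, beside 5.43% and 3.96% of all genes. Below the middle of their level neighbours lay 27 genes and above it 13, with 14 under the 25th percentile and 4 over the 75th.

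**Figure D1:**
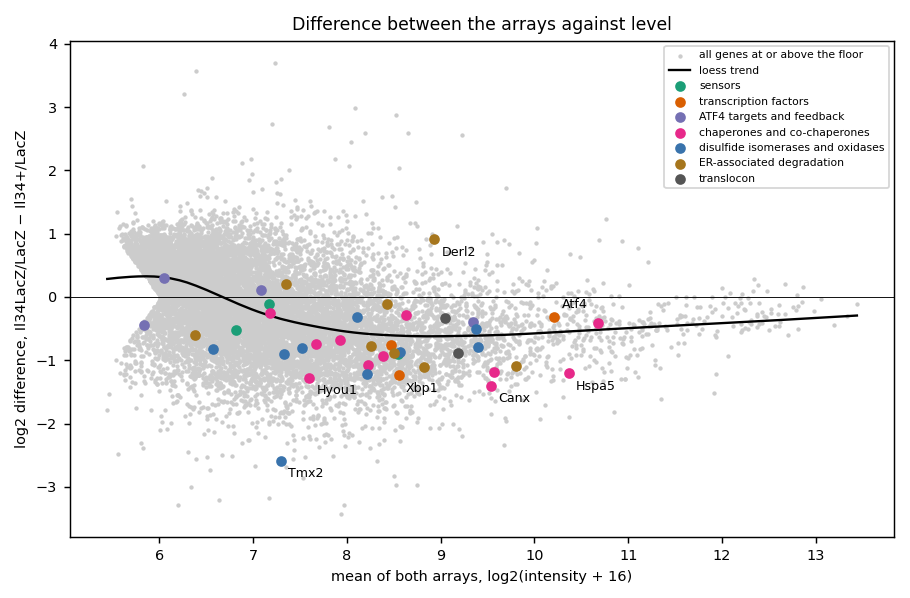
Each point is a gene at or above the floor, with its mean log2(intensity + 16) over both arrays on the x axis and its log2 difference, Il34LacZ/LacZ minus Il34+/LacZ, on the y axis. Coloured points are the 40 genes by role, the black line is the loess trend, and most coloured points lie on or below that line, with Tmx2 (-2.59) far below and Derl2 (0.91) far above it.

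The error of a single difference can be gauged only from genes with several probe sets. Over 614 such genes the log2 differences of probe sets of 1 gene had a pooled SD of 0.63, or 1.55-fold, which covers probes and isoforms but not animals, sorts or amplification. As deposited 24 of the 40 genes differed by more than this SD, or 60%, beside 41.2% of all genes and 49.2% of the level neighbours. With the trend removed 9 did (22.5%), beside 28.9% of all genes and 27.8% of the neighbours. Another scaling of the arrays moved the count of genes at least 1.5-fold lower as deposited to 16 with both arrays set to 1 upper quartile and to 12 with quantile normalization. With equal upper quartiles 16.8% of all genes were lower and 16.9% higher, and with quantile normalization 16.9% and 14.4%.

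The sort markers were read far above the floor on both arrays. Cd207, which encodes Langerin, read 1852 in Il34LacZ/LacZ and 3153 in Il34+/LacZ cells, and all 9 Langerhans cell markers passed the floor. Of these 9, 4 were at least 1.5-fold lower as deposited (Cd207, Csf1r, Cd24a and Cdh1) and none with the trend removed, when Epcam was higher. Keratinocyte markers read lower on the Il34LacZ/LacZ array: the summed intensity of 10 genes was 741 in Il34LacZ/LacZ and 4799.6 in Il34+/LacZ cells, and Krt14 read 58.6 against 787. Of the 9 above the floor 8 were at least 1.5-fold lower as deposited, and 7 with the trend removed. With 1 array each, genotype and sort cannot be told apart in this difference. The macrophage and monocyte markers summed to 3541 in Il34LacZ/LacZ and 2447 in Il34+/LacZ cells (9 genes, 4 higher and 2 lower). With the trend removed 5 of these 9 were at least 1.5-fold higher and none lower (median 0.93). Of the 7 markers of plasma cells, which are rich in ER, 2 were higher and 2 lower, and Jchain, the immunoglobulin joining chain, was under the floor on both arrays. T cell markers were high on both arrays in these Langerin and Epcam double-positive cells. Their 5 genes summed to 6012 in Il34LacZ/LacZ and 6561 in Il34+/LacZ cells, and Cd3e read 1250.3 in Il34LacZ/LacZ and 1245 in Il34+/LacZ cells. None of the 5 was 1.5-fold apart as deposited, while with the trend removed all were above 0 (median 0.56) and 2, Cd3g and Cd8a, were higher by at least 1.5-fold. The markers of fibroblasts, endothelium and melanocytes that reached the floor (3, 3 and 2 genes) had median differences of 0.70, 1.01 and 0.68. With the trend removed the medians were 0.58, 0.69 and 0.64. None of these genes read above 137 on either array. The endothelial median was that of Kdr, which read 56.3 in Il34LacZ/LacZ and 19.9 in Il34+/LacZ cells, and the fold that the floor allows was only 1.12. Kdr and Cdh5 (98.3 in Il34LacZ/LacZ and 40.4 in Il34+/LacZ cells) passed the floor on the Il34LacZ/LacZ array only. The sign of the endothelial medians was thus partly set by that filter. Vwf, above the floor on both arrays, differed by -0.28 (trend removed -0.02). Of the B cell markers only Cd79b reached the floor (-0.12). Of the mast cell markers 2 did, Kit at 196 in Il34LacZ/LacZ and 547 in Il34+/LacZ cells (-1.41, trend removed -0.81) and Gata2 (0.37, trend removed 0.27). No marker was at 0, but several were under the floor on both arrays, among them Ms4a1, Cd79a, Pecam1, Dcn, Mitf and Cpa3. The part of these cell types in the differences of the ER genes was not tested.

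Of the sensors, Atf6 read lower in Il34LacZ/LacZ cells by more than the probe set SD, whereas Ern1 and Eif2ak3 did not. Atf6, the sensor that is itself a transcription factor, read 257 in Il34LacZ/LacZ and 496 in Il34+/LacZ cells, 1.87-fold lower (-0.91, but -0.29 with the trend removed). Ern1, which encodes IRE1 alpha, read 78.5 in Il34LacZ/LacZ and 119 in Il34+/LacZ cells (difference -0.51, trend removed -0.42). Eif2ak3, the kinase PERK, read 122 in Il34LacZ/LacZ and 134 in Il34+/LacZ cells, with differences of -0.12 as deposited and 0.17 once the trend was removed. None of the 3 was 1.5-fold apart from genes of its level.

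Of the 3 transcription factors, Xbp1 and Ddit3 were at least 1.5-fold lower as deposited, and Atf4 was not. Xbp1, the target of IRE1 and a driver of ER expansion in secretory cells, read 229 in Il34LacZ/LacZ and 561 in Il34+/LacZ cells. It was 2.36-fold lower (-1.24), and at -0.63 past 1.5-fold with the trend removed, though within the probe set SD. That call was lost under 4 alternatives, at -0.48 against the median of the 300 nearest genes, -0.51 against 20 level bins, -0.55 with a pseudocount of 64 and -0.56 with a narrower loess window. Of the 300 genes nearest in level, 53 were lower still. Atf4, the factor translated when eIF2 alpha is phosphorylated, read 1044 in Il34LacZ/LacZ and 1309 in Il34+/LacZ cells (difference -0.32, trend removed 0.24). Ddit3, which encodes the proapoptotic factor CHOP, read 256 in Il34LacZ/LacZ and 443 in Il34+/LacZ cells, 1.69-fold lower as deposited but -0.15 with the trend removed.

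None of the 4 genes grouped here as ATF4 targets and feedback was called 1.5-fold apart in either direction. Herpud1, whose window also holds the amino acid response element, and Ddit3 are counted in other groups. Both were at least 1.5-fold lower as deposited, and neither with the trend removed. Ppp1r15a, the GADD34 subunit that returns eIF2 alpha to its unphosphorylated form, read 549 in Il34LacZ/LacZ and 729 in Il34+/LacZ cells (difference -0.40, trend removed 0.21). Chac1, a glutathione-degrading enzyme whose window holds the amino acid response element, read 125 in Il34LacZ/LacZ and 115 in Il34+/LacZ cells (difference 0.11, trend removed 0.36). Of its 300 level neighbours 197 lay below it. Trib3, a pseudokinase that restrains ATF4 and CHOP, lay around the floor at 57.6 in Il34LacZ/LacZ and 43.9 in Il34+/LacZ cells (difference 0.30, trend removed -0.01). Asns, asparagine synthetase, was under the floor at 32.8 in Il34LacZ/LacZ and just above it at 50.4 in Il34+/LacZ cells. Its measured difference of -0.45 was -0.77 with the trend removed, but the fold that the floor allows was only 1.03.

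**Figure D2:**
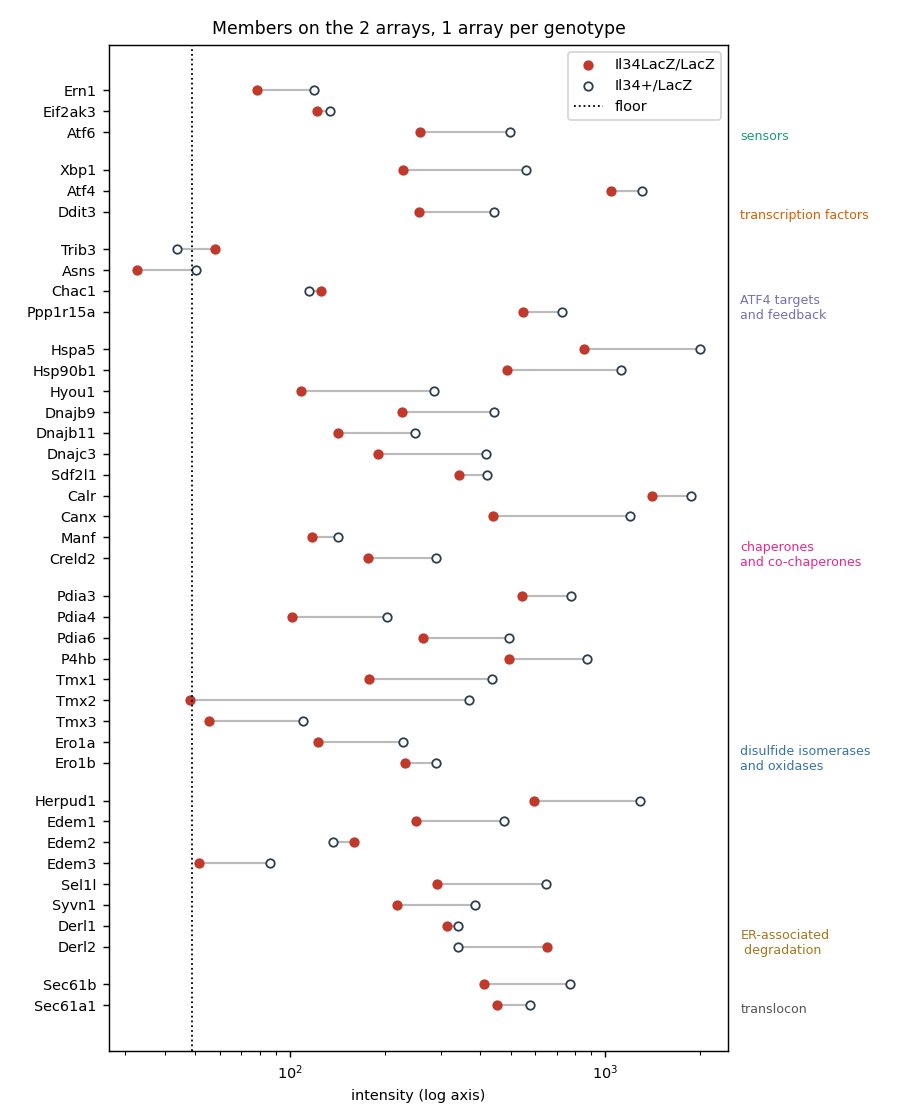
Intensity of each of the 40 genes on a log axis, with filled points for the Il34LacZ/LacZ array and open points for the Il34+/LacZ array, joined by a line and grouped by role. The dotted line is the floor, and the filled point lies left of the open one in 36 genes, the exceptions being Trib3, Chac1, Edem2 and Derl2. Of all 12843 genes at or above the floor 7230 also read lower in Il34LacZ/LacZ cells. With the trend removed 27 of the 40 genes lay below 0, and 6166 of all genes.

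The chaperones of the ER lumen and membrane held 8 of the 24 lower genes, and all 11 read lower as deposited (median -0.93), beside 7230 of all 12843 genes. With the trend removed 8 of the 11 lay below 0. Their median was then -0.33, and Canx, Hyou1 and Hspa5 were at least 1.5-fold lower, beside 17.2% of all genes. Canx, the membrane lectin calnexin that holds newly made glycoproteins, including MHC class I heavy chains, read 441 in Il34LacZ/LacZ and 1197 in Il34+/LacZ cells. It was 2.65-fold lower (-1.41, trend removed -0.80), and 14 of its 300 level neighbours were lower still. Calr, the soluble lectin calreticulin that shares this task, read 1405 in Il34LacZ/LacZ and 1865 in Il34+/LacZ cells (difference -0.41, trend removed 0.11). Of the 2 lectins only calnexin was thus past 1.5-fold, and the difference between them was not tested.

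Hspa5, the central chaperone BiP that also restrains the sensors, read 854 in Il34LacZ/LacZ and 1993 in Il34+/LacZ cells. It was 2.31-fold lower (-1.21, trend removed -0.66), with 22 of 300 level neighbours lower still. Hyou1, the nucleotide exchange factor of BiP, read 108 in Il34LacZ/LacZ and 285 in Il34+/LacZ cells, 2.42-fold lower (-1.28, trend removed -0.83). Hsp90b1, the chaperone GRP94 on which Toll-like receptors and integrins depend, read 487 in Il34LacZ/LacZ and 1123 in Il34+/LacZ cells, 2.26-fold lower. With the trend removed its difference of -0.58 lay just short of 1.5-fold, and was past it at -0.68 against 20 level bins and -0.59 with a pseudocount of 1. These 3 genes lay below most genes of their level, at percentiles of 7.33, 9.33 and 12.3 among their neighbours.

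The co-chaperones of BiP carry a DnaJ domain that stimulates its ATPase. Dnajc3, which also inhibits PERK, read 189.8 in Il34LacZ/LacZ and 417 in Il34+/LacZ cells, 2.10-fold lower (-1.07, trend removed -0.49). Dnajb9, a repressor of IRE1, read 226 in Il34LacZ/LacZ and 444 in Il34+/LacZ cells, 1.90-fold lower (trend removed -0.33). Dnajb11, a folding partner of BiP, read 142 in Il34LacZ/LacZ and 249 in Il34+/LacZ cells, 1.68-fold lower (trend removed -0.28). All 3 were past 1.5-fold as deposited and none with the trend removed. Smaller differences were seen in the secreted or soluble stress proteins. Sdf2l1, a partner of Dnajb11, read 343 in Il34LacZ/LacZ and 422 in Il34+/LacZ cells (difference -0.29, trend removed 0.33). Manf, a secreted BiP-binding factor, read 117 in Il34LacZ/LacZ and 142 in Il34+/LacZ cells (difference -0.25, trend removed 0.05). Creld2, a stress-induced ER protein, read 177 in Il34LacZ/LacZ and 291 in Il34+/LacZ cells, 1.59-fold lower (trend removed -0.14).

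Disulfide isomerases and oxidases form and rearrange the disulfide bonds of folding proteins. As deposited 7 of the 9 were at least 1.5-fold lower, beside 28.2% of all genes. The thioredoxin-related transmembrane proteins Tmx1, Tmx2 and Tmx3 were the 3 of them past 1.5-fold with the trend removed, beside 17.2% of all genes. Tmx2 kept that call under every alternative tried, but Tmx1 lost it against the median of its 300 neighbours (-0.58) and with a pseudocount of 64 (-0.54), and Tmx3 with a pseudocount of 64 (-0.58). Tmx2, a membrane protein of ER and mitochondria contact sites, read 48.0 in Il34LacZ/LacZ cells, just under the floor, and 371 in Il34+/LacZ cells. It was at least 5.97-fold lower (-2.59, trend removed -2.25), and none of its 300 level neighbours was lower. Its other probe set, dimmer, read 14.1 in Il34LacZ/LacZ and 63.0 in Il34+/LacZ cells, also lower (-1.39). In the RefSeq annotation of GRCm38.p6 the Tmx2 locus overlaps Med19, and where the probes lie is not given in the sources used here. Such overlaps are not particular to Tmx2. Loci of other genes of the set also overlap another gene, among them Hspa5 (Rabepk), Ddit3 (Mbd6 and Mars1), Pdia3 (Catsper2) and Pdia6 (Atp6v1c2). Tmx1, an isomerase that acts on membrane-bound substrates, read 178 in Il34LacZ/LacZ and 438 in Il34+/LacZ cells, 2.33-fold lower (-1.22, trend removed -0.64). Tmx3, another membrane-anchored isomerase, read 55.4 in Il34LacZ/LacZ cells, near the floor, and 109.9 in Il34+/LacZ cells, 1.76-fold lower (-0.82, trend removed -0.89).

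With the loess trend removed, none of the soluble isomerases or the oxidases was past 1.5-fold. P4hb, the classical protein disulfide isomerase, read 496 in Il34LacZ/LacZ and 871 in Il34+/LacZ cells, 1.73-fold lower (trend removed -0.18). Pdia3, the isomerase ERp57 that works with calnexin and calreticulin and in the MHC class I loading complex, read 543 in Il34LacZ/LacZ and 777 in Il34+/LacZ cells (difference -0.51, trend removed 0.11). Pdia4 read 101 in Il34LacZ/LacZ and 203 in Il34+/LacZ cells, 1.86-fold lower (trend removed -0.54), with a second probe set under the floor on both arrays. It was past 1.5-fold with the trend removed under 3 alternatives, at -0.65 with the mean over its probe sets and at -0.61 with quantile normalization and with a pseudocount of 1. With that mean its call as deposited was lost, at -0.42. The mean takes in the second probe set, which read 22.7 in Il34LacZ/LacZ and 21.0 in Il34+/LacZ cells. Pdia6, which also tunes IRE1 and PERK signalling, read 264 in Il34LacZ/LacZ and 496 in Il34+/LacZ cells, 1.83-fold lower (trend removed -0.26). The oxidases that recharge the isomerases are listed under their present symbols Ero1a and Ero1b. Ero1a read 123 in Il34LacZ/LacZ and 228 in Il34+/LacZ cells, 1.75-fold lower (trend removed -0.39), and Ero1b, its paralogue, 232 in Il34LacZ/LacZ and 291 in Il34+/LacZ cells (difference -0.31, trend removed 0.26).

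**Figure D3:**
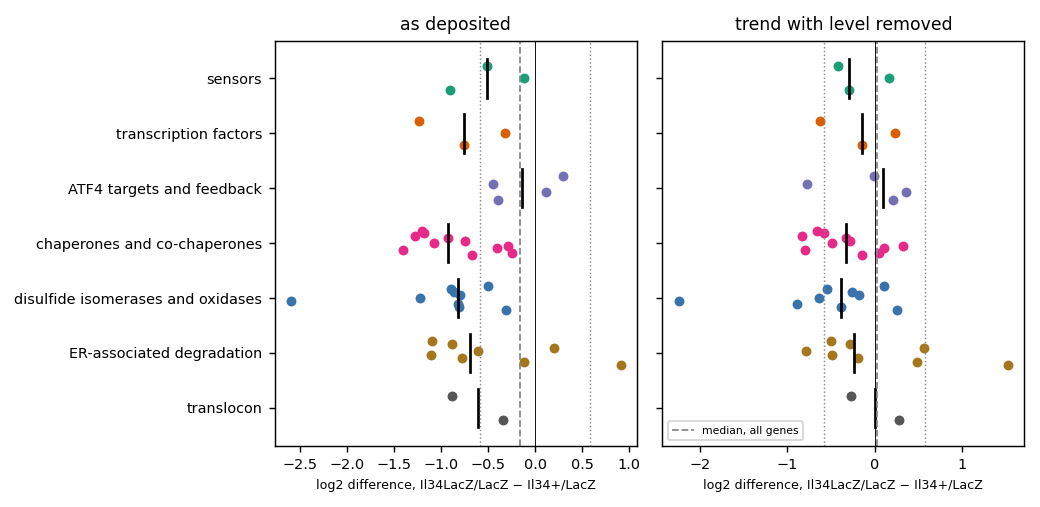
Log2 difference, Il34LacZ/LacZ minus Il34+/LacZ, of each gene by role, as deposited on the left and with the trend with level removed on the right. Black bars are role medians, dotted lines mark 1.5-fold, and the dashed line is the median of all genes, -0.16 on the left and 0.03 on the right.

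ER-associated degradation, which extracts misfolded proteins for the proteasome, had genes on both sides of the genes of their level. As deposited 5 of its 8 genes were lower by at least 1.5-fold and 1 was higher, beside 28.2% and 9.36% of all genes. With the trend removed Edem3 was lower and Derl2 higher, beside 17.2% and 12.2% of all genes. Among 8 genes, 1 in each direction is near those shares. Edem3 lost that call with a pseudocount of 64 (-0.50). Derl2, a channel protein of the degradation complex, read 654 in Il34LacZ/LacZ and 341 in Il34+/LacZ cells, 1.88-fold higher (0.91, trend removed 1.53). Of its 300 level neighbours 298 lay below it. Its locus overlaps that of Mis12 in the same annotation. Its relative Derl1 read 314 in Il34LacZ/LacZ and 341 in Il34+/LacZ cells (difference -0.11, trend removed 0.49). Herpud1, a scaffold of the complex, read 593 in Il34LacZ/LacZ and 1285 in Il34+/LacZ cells, 2.13-fold lower (-1.09, trend removed -0.50).

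Sel1l and Syvn1 encode the adaptor and the ubiquitin ligase HRD1 of the same complex. Sel1l read 293 in Il34LacZ/LacZ and 648 in Il34+/LacZ cells, 2.15-fold lower (-1.11, trend removed -0.48). Syvn1 read 219 in Il34LacZ/LacZ and 385 in Il34+/LacZ cells, 1.71-fold lower (-0.77, trend removed -0.19). The EDEM proteins trim mannose from glycoproteins that failed to fold, and 2 of their 3 genes were lower. Edem1 read 250.5 in Il34LacZ/LacZ and 476 in Il34+/LacZ cells, 1.85-fold lower (trend removed -0.28). Edem2 read 159 in Il34LacZ/LacZ and 136 in Il34+/LacZ cells (difference 0.20, trend removed 0.57), and was past 1.5-fold higher with the trend removed under 4 alternatives, at 0.61 to 0.62. Edem3 read 51.5 in Il34LacZ/LacZ cells, near the floor, and 86.5 in Il34+/LacZ cells, 1.52-fold lower (trend removed -0.79).

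The translocon, the channel through which new proteins enter the ER, was represented by Sec61a1 and Sec61b. Sec61a1, its pore-forming subunit, read 453 in Il34LacZ/LacZ and 577 in Il34+/LacZ cells (difference -0.34, trend removed 0.28). Sec61b, a small accessory subunit, read 411 in Il34LacZ/LacZ and 773 in Il34+/LacZ cells, 1.85-fold lower (trend removed -0.27). Its 3 probe sets were all lower in Il34LacZ/LacZ cells but by unequal amounts, with the other 2 at -2.31 and -0.46.

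**Figure D4:**
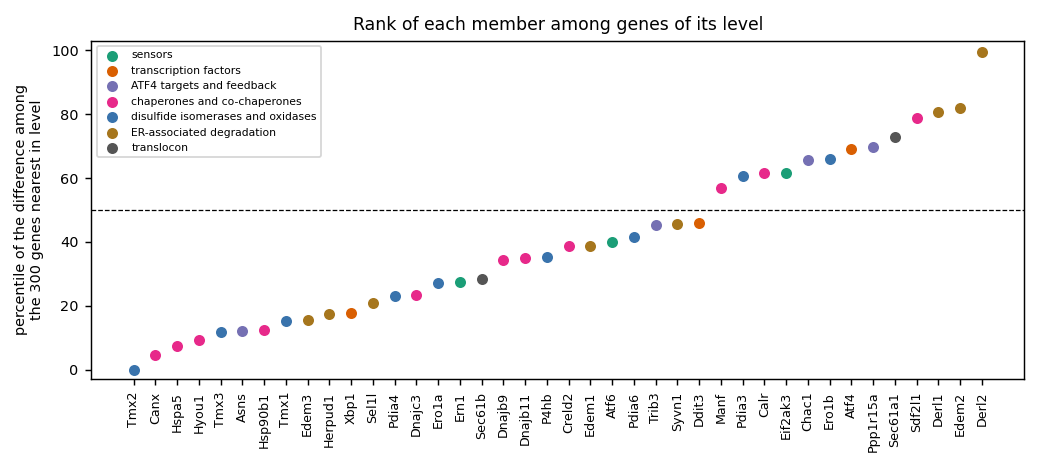
For each of the 40 genes, in rising order, the percentile of its difference among the 300 genes nearest in mean level, coloured by role. The dashed line is the middle of the neighbours, with 27 genes below it, from Tmx2 up, and 13 above it, up to Derl2.

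Genes with the ER stress response element lay within the range of those without it. The 9 carriers ranged from -1.41 (Canx) to -0.31 (Ero1b), with a median of -0.87 as deposited and -0.26 with the trend removed. The 25 other genes of the set with a window had medians of -0.75 and -0.28. Carriers thus included Canx and Hspa5 among the lowest, and Calr and Ero1b among those that differed least, whose elements are printed above.

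Outside the 40 genes, 10 lists of related genes held 169 genes, of which 162 had a probe set of their own and 150 reached the floor. As deposited 86 of the 150 were lower by at least 1.5-fold and 5 were higher (median -0.65), and with the trend removed 38 were lower and 15 higher (median -0.23). The shares lower were 57.3% and 25.3%, beside 28.2% and 17.2% of all genes and 41.2% and 18.0% of the 300 level neighbours of each gene on average. The shares higher were 3.33% and 10%, beside 9.36% and 12.2% of all genes. By list, 31.1% to 49.0% of the level neighbours were lower as deposited and 15.9% to 20.8% with the trend removed. The genes of signal recognition, translocation and signal cleavage were lower in 16 of 19 as deposited, and in 5 of 19 with the trend removed (Ssr3, Ssr2, Spcs2, Srpr and Sec63), when Srp19 was higher. Ssr3 and Ssr2, subunits of the translocon-associated protein complex, were 3.53-fold and 2.87-fold lower, at -1.21 and -0.91 with the trend removed. Spcs2, a signal peptidase subunit, read 116 in Il34LacZ/LacZ and 343 in Il34+/LacZ cells. Of N-glycosylation and glycoprotein quality control, 11 of 21 were lower as deposited and 4 with the trend removed (Ganab, Alg3, Dpagt1 and Alg2). Ganab, the catalytic subunit of glucosidase II that feeds glycoproteins to calnexin, read 60.3 in Il34LacZ/LacZ and 265 in Il34+/LacZ cells, 3.69-fold lower and -1.58 with the trend removed. Dpagt1 and Alg3, enzymes that build the sugar precursor, were 2.49-fold and 2.37-fold lower.

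Kinases and subunits around eIF2 were lower in 8 of 10 as deposited and in 5 of 10 with the trend removed (Eif2b2, Eif2b3, Eif2b5, Eif2s3x and Eif2ak4). Eif2b2, a subunit of the exchange factor eIF2B, was 2.46-fold lower, Eif2s3x, the gamma subunit of eIF2, 2.42-fold and the heme-regulated kinase Eif2ak1 2.17-fold lower. Eif2b1, a further eIF2B subunit, read 188 in Il34LacZ/LacZ and 81.4 in Il34+/LacZ cells and was higher. Other ATF4 targets were mixed, with 10 of 22 lower and 2 higher as deposited, and 5 lower and 4 higher with the trend removed. The 5 were Slc7a5, Wars, Shmt2, Mthfd2 and Aldh18a1, and the 4 were Psph, Slc7a11, Cebpb and Atf5. Slc7a5, a transporter of large neutral amino acids, read 733 in Il34LacZ/LacZ and 1836 in Il34+/LacZ cells, 2.47-fold lower. Wars, the tryptophanyl-tRNA synthetase, was 2.26-fold and Shmt2, a mitochondrial serine enzyme, 2.14-fold lower. The 2 genes higher as deposited were the cystine transporter gene Slc7a11 (161 in Il34LacZ/LacZ and 72.3 in Il34+/LacZ cells) and Psph, of serine synthesis (206 in Il34LacZ/LacZ and 107 in Il34+/LacZ cells). Genes of these lists beyond the 3 with the largest difference in each were named after their values were seen.

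Of the other disulfide isomerases 6 of 10 were lower as deposited and 4 with the trend removed (Prdx4, Txndc12, Tmx4 and Qsox2). Prdx4, the ER peroxiredoxin, read 40.7 in Il34LacZ/LacZ cells, under the floor, and 255 in Il34+/LacZ cells, at least 4.18-fold lower, and none of its 300 level neighbours was lower. Tmx4, of the same family as Tmx1, was 2.32-fold and Txndc12 at least 1.80-fold lower. Other genes of ER-associated degradation were lower in 11 of 18 and higher in 1, and with the trend removed lower in 6 and higher in 1. The ubiquitin-conjugating enzymes Ube2j1 and Ube2g2 were 2.40-fold and 2.27-fold lower and Nploc4, a cofactor of the extracting ATPase, 2.21-fold. The 1 higher gene was Derl3, the remaining Derlin, which read 107 in Il34LacZ/LacZ and 57.0 in Il34+/LacZ cells.

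The list of other ER chaperones had 3 of 11 lower as deposited, and none lower and 2 higher (Fkbp2 and Cnpy2) with the trend removed. Cnpy3, a partner of GRP94 for Toll-like receptors, was 2.01-fold lower, Ppib, the ER cyclophilin, 1.74-fold and Cnpy4 1.57-fold lower. ER to Golgi transport genes were lower in 13 of 24 as deposited, and 6 lower and 4 higher (Copg1, Mcfd2, Surf4 and Sec13) with the trend removed. Kdelr1, a receptor that returns ER proteins from the Golgi, was 2.67-fold lower, and the COPII coat genes Sec31a and Sec24c 2.63-fold and 2.27-fold. Of the UFM1 conjugation genes, a modifier system of the ER, 4 of 6 were lower as deposited and 1 with the trend removed, namely Ufm1 itself (2.35-fold). Ddrgk1 and Cdk5rap3, components of the ligase, were 1.84-fold and 1.81-fold lower. Among the remaining regulators 4 of 9 were lower and 1 higher as deposited, and with the trend removed Mbtps1 and Creb3 were lower and Wfs1 and Bloc1s1 higher. Mbtps1, the protease that first cuts ATF6, read 112 in Il34LacZ/LacZ and 336 in Il34+/LacZ cells, 2.75-fold lower and -0.97 with the trend removed. Creb3, an ER-anchored factor, was 2.18-fold lower, whereas Wfs1, an ER membrane protein, read 173 in Il34LacZ/LacZ and 75.3 in Il34+/LacZ cells, 2.07-fold higher.

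**Figure D5:**
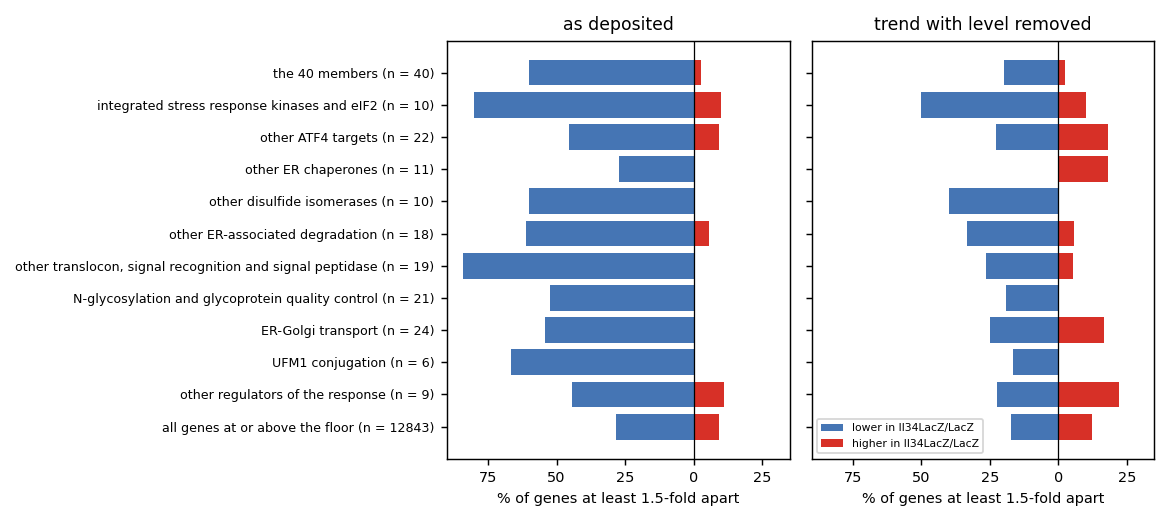
Percentage of genes at least 1.5-fold lower (blue, to the left) or higher (red, to the right) in Il34LacZ/LacZ cells, as deposited and with the trend with level removed, for the 40 genes, the 10 related lists and all 12843 genes at or above the floor. As deposited most lists exceed the 28.2% lower of all genes, and with the trend removed the 40 genes (20% lower) lie close to all genes (17.2%).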

How the data were processed

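Gene expression was measured on 2 one-colour microarrays, 1 per genotype. The authors deposited 1 linear intensity per probe set and array; per the labels' protocols, 2 ng of total RNA went into each biotin labelling. How probes were summarised, background-corrected and scaled is not given in the sources used here, and arrays carry no counts, so their number limits the precision. Of 34760 probe sets, 21640 had 1 gene symbol in the platform annotation, 1321 several and 11799 none. Only the first were used. RefSeq's table listed the gene numbers of 19854 of the 19937 genes.

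Values were taken as log2(intensity + 16). The trend with level was a loess fit (fraction 0.3) over probe sets with 1 symbol. Folds are ratios of intensity + 16, with levels set to at least the floor of 48.7. Differences and medians use the measured values. Every gene of the set is named, and up to 3 genes of each related list with the largest difference. The members and lists were chosen with earlier results of these data known. The fits were tested on simulated data. Alternatives changed the floor, probe set rule, scaling, pseudocount and trend. Python 3.11.15, numpy 2.4.6, pandas 2.3.3, statsmodels 0.14.6 and matplotlib 3.10.9 were used. Promoter sequences are RefSeq's (GRCm38.p6). Protein sequences were not used here.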

Additional observations from a re-analysis of the deposited data

How the results depend on the processing

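No paired analysis was possible because each genotype has 1 array. As deposited, the median difference of the 40 genes was -0.76; it was -0.91 with each array centred on its median, -0.50 with equal upper quartiles, -0.37 with quantile normalization and -0.62 with a pseudocount of 64. Those 3 scalings moved the median of all genes by -0.18, 0.31 and 0.19. The 24 genes at least 1.5-fold lower became 12 with quantile normalization and 16 with equal upper quartiles, beside 16.9% and 16.8% of all genes. They became 21 to 26 under the other alternatives, beside 19.6% to 36.2% of all genes, with 34 genes left where the 75th percentile was the floor. The 8 genes that were lower with the trend removed became 4 with a pseudocount of 64, beside 9.34% of all genes. Otherwise they became 6 to 10, beside 10.3% to 20.5% of all genes. Beside the calls named above, Sec61b was past 1.5-fold lower with the mean over its probe sets (-0.62), Herpud1 lower (-0.59) and Derl1 higher (0.61) against 20 level bins, and Asns lower with a lower floor, none or level bins. The trend-removed median of the 40 genes ran from -0.29 to -0.17. The cause of these shifts was not tested, beyond the scaling itself. Of 826 differences of single genes under an alternative, 825 moved by less than the probe set SD. The exception was Tmx2, at -1.96 with a pseudocount of 64 in place of -2.59. Many of the 826 could not move, since a changed floor leaves measured differences as they are. The SD, at 1.55-fold, is also wider than the 1.5-fold threshold, so calls changed within it. Atf6, for example, lost its call as deposited at -0.39 with quantile normalization in place of -0.91. No value changed sign among those past 1.5-fold.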

Other observations

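Genes outside the set that carry the ER stress response element in a promoter window numbered 28, and 9 of them were measured at or above the floor. Their median difference was 0.43 as deposited and 0.22 with the trend removed. Spats2l and Tdrd9 passed the floor on the Il34LacZ/LacZ array only, at 48.3 and 40.2 in Il34+/LacZ cells, so that filter favoured a positive median. Apart from Pan2 and Zfp57, none of the 9 read above 107 on either array, so they are not matched in level to the 40 genes. Derl3, a Derlin of ER-associated degradation, read 107 in Il34LacZ/LacZ and 57.0 in Il34+/LacZ cells, 1.68-fold higher. Pan2, a subunit of a poly(A) nuclease, read 186 in Il34LacZ/LacZ and 323 in Il34+/LacZ cells, 1.68-fold lower, and was the only 1 of the 9 past 1.5-fold in that direction. The remaining 7, all within 1.5-fold, were Zfp57, Adcy3, Alg12, Ptgdr2, Spats2l, Acacb and Tdrd9, and none of the 28 was chosen for its values.

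Sec61g, the gamma subunit of the translocon, could not be read alone, since its 3 probe sets are also assigned to predicted genes. They read 773, 1520 and 981 in Il34LacZ/LacZ and 1463, 1755 and 1366 in Il34+/LacZ cells, and differed by -0.91, -0.21 and -0.47. Mbtps2, the second protease that cuts ATF6, shares its probe set with Yy2, which read 174 in Il34LacZ/LacZ and 128 in Il34+/LacZ cells.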
